A study of Mus musculus with 36 samples.

Results

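Liver mRNA of 10 genes that control the passage of cells through the G1 phase was followed over development: the D-type cyclins Ccnd1, Ccnd2 and Ccnd3, their kinases Cdk4 and Cdk6, the kinase inhibitors Cdkn1a (p21), Cdkn1b (p27) and Cdkn2c (p18), the retinoblastoma gene Rb1 and Trp53 (p53). The genes were chosen by symbol from the 21889 symbols of the deposited table and each symbol occurs there. The livers came from 36 male C57BL/6 mice (C57BL/6J in the methods) that carried no transgene and received no treatment, with 3 mice at each of 12 ages. The ages were GD17.5 (a gestational age that the labels give as day -2 from birth), Day 0 (newborns that had not yet suckled), Days 1, 3, 5, 10, 15 and 20 (before weaning) and Days 25, 30, 45 and 60 (after weaning). Mice of an age were drawn from several litters, so that the 3 values of an age are 3 animals, and the hour of collection was fixed for Days 3 to 60 while at Day 0 and Day 1 it followed the hour of birth.

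A D-type cyclin binds CDK4 or CDK6, and the active kinase phosphorylates the retinoblastoma protein. This frees E2F transcription factors, which switch on genes for cyclin E and for DNA replication. Inhibitors of the INK4 class, to which p18 belongs, bind CDK4 and CDK6 themselves, whereas p21 and p27 of the Cip/Kip class bind complexes of cyclins with kinases. p53 activates Cdkn1a transcription through a response element upstream of the gene. The fetal liver is a site of blood formation and its hepatocytes divide, whereas few cells of the adult mouse liver are in cycle.

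Expression was given as FPKM, the fragments of a gene divided by its length in kilobases and by the mapped fragments in units of 1000000, so levels can be compared between genes on a scale that accounts for transcript length. No read counts accompany the values. In 1021 of 3658 low genes tried, the values could be read as steps of whole fragments, while the others gave no clear step. From the genes with steps the libraries were estimated to differ little in depth (0.892 to 1.106 relative to their average) and to hold about 82.6 fragments in units of 1000000 each, a rough estimate from 374 genes. At that depth the lowest values of the 10 genes, 0.145 FPKM of Ccnd2 and 0.165 FPKM of Rb1, stood for about 69 and 63 fragments. The labelled tissue was checked with hepatocyte genes: Alb, the serum protein albumin, was at 3272 ± 518 FPKM (SD, n = 3) at GD17.5 and rose to 25672 ± 5133 at Day 0.

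Some libraries stood apart from the others of their age. In GD17.5 mouse 1, long transcripts were read higher relative to short ones by 0.371 on the log2 scale, measured against the mean of its own age, compared with -0.202 and -0.158 in the other mice. Mouse 1 of Day 1 (0.286), Day 3 (0.258), Day 10 (0.345) and Day 25 (0.285) leaned the same way, and Day 30 mouse 1 (-0.417), Day 25 mouse 2 (-0.36), Day 1 mouse 3 (-0.3), Day 45 mouse 3 (-0.282) and Day 5 mouse 2 (-0.258) the other way. In Day 0 mouse 1, skeletal muscle genes summed to 1130.2 FPKM, compared with 4.37 and 4.08 in mice 2 and 3. Day 10 mouse 1 had a muscle sum of 75.6 FPKM, compared with 7.18 and 1.15 in the other mice. In Day 60 mouse 1, exocrine pancreas genes summed to 15513 FPKM, compared with 0.353 and 1.55 in the other Day 60 mice. Day 20 mouse 2 (5003 FPKM) and Day 45 mouse 1 (3638 FPKM) stood apart in the same way, with at most 4.87 FPKM in the other mice of those ages. These libraries were kept, and values without them are given where they matter.

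Where a sequence is known to link 2 of these genes, the letters are shown first. The window of 250 bases before the upstream annotated start of Cdkn1a holds the p53 response element, written here as 2 copies of CATG with 6 bases of any kind between them, and shown in capitals. The sequence is from RefSeq, build GRCm38.p6, and it matched 1 place in NCBI37/mm9, the build of the deposited values, chr17:29227674-29227923 on the plus strand, directly before the first exon of the gene.
Cdkn1a upstream start: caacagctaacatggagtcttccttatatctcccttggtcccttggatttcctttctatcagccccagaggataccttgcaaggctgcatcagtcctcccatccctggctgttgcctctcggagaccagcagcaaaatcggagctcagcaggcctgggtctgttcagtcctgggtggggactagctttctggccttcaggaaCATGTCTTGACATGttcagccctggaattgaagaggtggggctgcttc
The element lies from 48 to 35 bases before this upstream start. The window before the other annotated start of Cdkn1a, further downstream at chr17:29230464-29230713 in NCBI37/mm9, holds none. Of 32851 mouse promoter windows, searched over the 250 bases before a start, 161 (0.490%) hold these letters on either strand. Promoter windows were at hand for 7 of the 10 genes, 10 windows in all, and among them the element was found in this one alone. Letters of an E2F site, TTTCGCG, were found from 200 to 194 bases before the second start of Cdkn2c, chr4:109337978-109338227 on the minus strand of NCBI37/mm9.
Cdkn2c second start: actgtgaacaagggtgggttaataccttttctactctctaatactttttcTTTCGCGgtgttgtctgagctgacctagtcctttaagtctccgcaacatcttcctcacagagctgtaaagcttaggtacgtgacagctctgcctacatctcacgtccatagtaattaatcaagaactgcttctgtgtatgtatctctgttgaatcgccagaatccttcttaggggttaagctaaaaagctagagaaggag
The capitals mark TTTCGCG, which 231 windows (0.703%) hold. The related letters TTTGGCG, held by 413 windows (1.26%), were found in none of the 10 windows at hand, which belong to 7 of the 10 genes. A match describes letters and says nothing of binding in these livers.

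All 10 genes passed the filter on low values, an age mean of 1 FPKM or more, and all 10 differed among the 12 ages (limma moderated F test, adjusted p under 0.05), as did 91.4% of the 11149 genes tested. The call is therefore close to what most liver genes showed, and the timing and size of each gene's changes are described below. At GD17.5 all 10 were higher than at Day 60. In that comparison 75.1% of all genes tested were called, 56.4% as higher and 18.6% as lower. The median log2 fold change of the 10 genes was 1.63, against 0.56 for all genes tested. In these whole-liver values, fewer cells of a type and less RNA per cell cannot be told apart.

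The number of the 10 genes called against Day 60 was 6 at Day 0 (63.9% of all genes tested), 9 at Day 1 (65.0%), 10 at Day 3 (66.0%) and 8 at Day 5 (65.4%). It was 8 at Day 10 (46.0%), 5 at Day 15 (27.4%) and 4 at Day 20 (15.9%). After weaning it was 2 at Day 25 (7.42%), 2 at Day 30 (3.56%) and 0 at Day 45 (0.233%). Each of the genes called was higher at the younger age. With upper quartile scaling the count at Day 3 was 6, without Ccnd1, Cdk6, Cdkn1b and Rb1. The Day 1 count was 6 with that scaling, without Cdk6, Cdkn1b and Rb1, and also 6 without Day 1 mouse 1. Without Day 20 mouse 1, Day 60 mouse 1 or Day 60 mouse 2 the count at Day 20 was 1, and without Day 20 mouse 3 it was 2. The count at Day 25 was 1 without Day 25 mouse 2 or Day 60 mouse 1, and that at Day 30 was 1 without Day 60 mouse 2. Dunnett's comparison, gene by gene, called 6, 8, 6 and 3 genes on Days 1, 3, 10 and 25, in that order, and as many as limma at the other ages. At Day 45 limma called none of the 10 and Dunnett's comparison 0, and 1 gene, Cdkn1a, had an unadjusted p under 0.05. The 11 comparisons share the Day 60 mice, so their calls are not independent of each other.

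**Figure D1:**
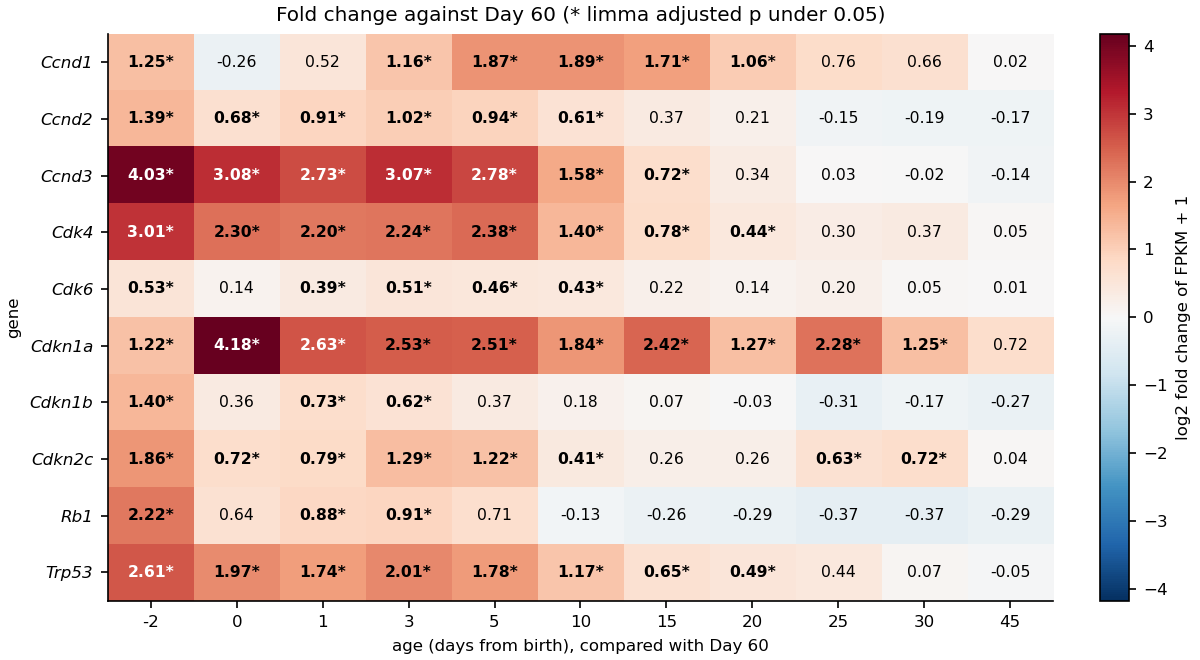
Log2 fold change of FPKM + 1 of the 10 genes (rows) at each age against Day 60 (columns), with asterisks for a limma adjusted p under 0.05. Ccnd3 was 4.03 at GD17.5 and 0.03 at Day 25, whereas Cdkn1a stood out at Day 0 with 4.18 and was still called at Day 25 (2.28) and Day 30 (1.25).

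The D-type cyclins differed in level, with Ccnd3 the highest at every age. Ccnd3 was at 281, 333 and 329 FPKM in the GD17.5 mice. At Day 60 it was at 16.2, 17.9 and 20.8 FPKM. The age groups were far apart, 314 ± 28.9 (SD, n = 3) against 18.3 ± 2.33 FPKM, a 17.2-fold difference of means and a log2 fold change of 4.03 ± 0.15 (SE, limma adjusted p = 6.65e-20). Between these ages Ccnd3 was at 164 ± 32.9 FPKM at Day 0, 161 ± 9.05 at Day 3 and 132 ± 22 at Day 5, and the mice of Day 0 overlapped with those of either age. The values at Day 10, 49.3, 61.8 and 59.4 FPKM, lay below all of those at Day 5. From Day 20 on, Ccnd3 no longer differed from Day 60 beyond the threshold, and all 15 mice of Days 20 to 60 were between 15.4 and 24.9 FPKM.

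Ccnd1, the cyclin that mitogens induce in hepatocytes, followed another course. It was at 12.7, 10.1 and 10.8 FPKM at GD17.5. At Day 0 it was at 2.78, 4.90 and 2.53 FPKM. Every newborn was thus below every fetus, with means of 3.40 ± 1.3 against 11.2 ± 1.33 FPKM and a log2 fold change of -1.5 ± 0.31 (SE, adjusted p = 2.11e-04). The level was then highest at Days 5, 10 and 15. At Day 10 the mice were at 25.3, 15.1 and 15.2 FPKM, compared with 3.73, 4.06 and 4.61 at Day 60, and the log2 fold change was 1.89 ± 0.31 (SE, adjusted p = 9.83e-06). Without mouse 1, whose library favoured long transcripts and had the high muscle sum, it was 1.65 ± 0.34 (adjusted p = 2.29e-04). The mean at Day 10, 18.5 ± 5.87 FPKM, was above that at GD17.5, a difference that was not tested, and neighbours in the order of the 12 age means overlapped in all 11 pairs. At Day 20 mouse 1 was at 19.5 FPKM and the others at 7.12 and 6.24, all above the Day 60 mice. The Day 20 call (log2 fold change 1.06 ± 0.31, adjusted p = 0.0168) was lost without mouse 1 (log2 fold change 0.58, adjusted p = 0.235) and also without Day 60 mouse 1 or 2 (adjusted p 0.0662 and 0.0521, with a log2 fold change of at most 1.05). At Day 0 and Day 1 Ccnd1 was not called against Day 60.

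Ccnd2, the least abundant D-type cyclin here, was at 4.59, 2.12 and 2.79 FPKM at GD17.5 and at 0.629, 0.623 and 0.392 FPKM at Day 60. The highest of these values was in the GD17.5 mouse whose library favoured long transcripts, and the Ccnd2 transcript has 5701 bases. The log2 fold change was 1.39 ± 0.20 (SE, adjusted p = 3.33e-07), and 1.16 ± 0.20 without that library (adjusted p = 1.02e-05). Ccnd2 was called as higher up to Day 10, where the call (0.61, adjusted p = 0.0126) was lost without Day 10 mouse 1, a library that favoured long transcripts, or Day 60 mouse 3 (adjusted p 0.0550 and 0.104 as the lowest and highest). Ccnd2 was lower at Day 0 (1.14, 1.57 and 1.76 FPKM) than at GD17.5 (log2 fold change -0.71 ± 0.20, adjusted p = 0.00378), and the call was lost without GD17.5 mouse 1 (-0.48, adjusted p = 0.0556). From Day 25 to Day 45 every mouse was at or below 0.561 FPKM.

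Each cyclin was also expressed as a percentage of the summed FPKM of the 3 D-type cyclins. Such shares do not depend on how a library was scaled, but they can depend on its lean towards long or short transcripts. The longest transcripts have 2113 bases for Ccnd3, 3740 for Ccnd1 and 5701 for Ccnd2. At Day 10 the Ccnd3 share was 64.4% in mouse 1, whose library favoured long transcripts, and 79.5% and 78.3% in the others. At Day 1 it was 92.9% in mouse 1, which leaned the same way, and 91.8% and 96.1% in the others. The part of transcript length in the shares was not tested. Ccnd3 made up 95.6% ± 1.19 (SD, n = 3) of the sum at GD17.5 and 97.0% ± 1.19 at Day 0. Its share was 64.4% ± 9.55 at Day 15 and 79.6% ± 0.943 at Day 60. Ccnd1 moved the other way, from 2.12% ± 1.06 at Day 0 to 33.5% ± 9.12 at Day 15 and 18% ± 0.160 at Day 60. Averaged over the 5 ages from GD17.5 to Day 5, Ccnd3 was at 93.1%, against 72.1% over the 7 later ages, a difference of 21 percentage points. The 3 shares add up to 100%, so the difference of -20.3 points for Ccnd1 mirrors that of Ccnd3 and is no separate result. Ccnd2 remained a minor part, 1.2% against 1.9%. Ages follow each other in time and are not exchangeable, so these differences are a description with no test. With the boundary between Day 20 and Day 25 they were 9.54 points for Ccnd3 and -9.28 for Ccnd1. The summed FPKM of the 3 genes was 329 ± 26.3 in GD17.5 livers, 76.7 ± 0.980 in those of Day 10 and 23 ± 2.65 in those of Day 60.

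**Figure D2:**
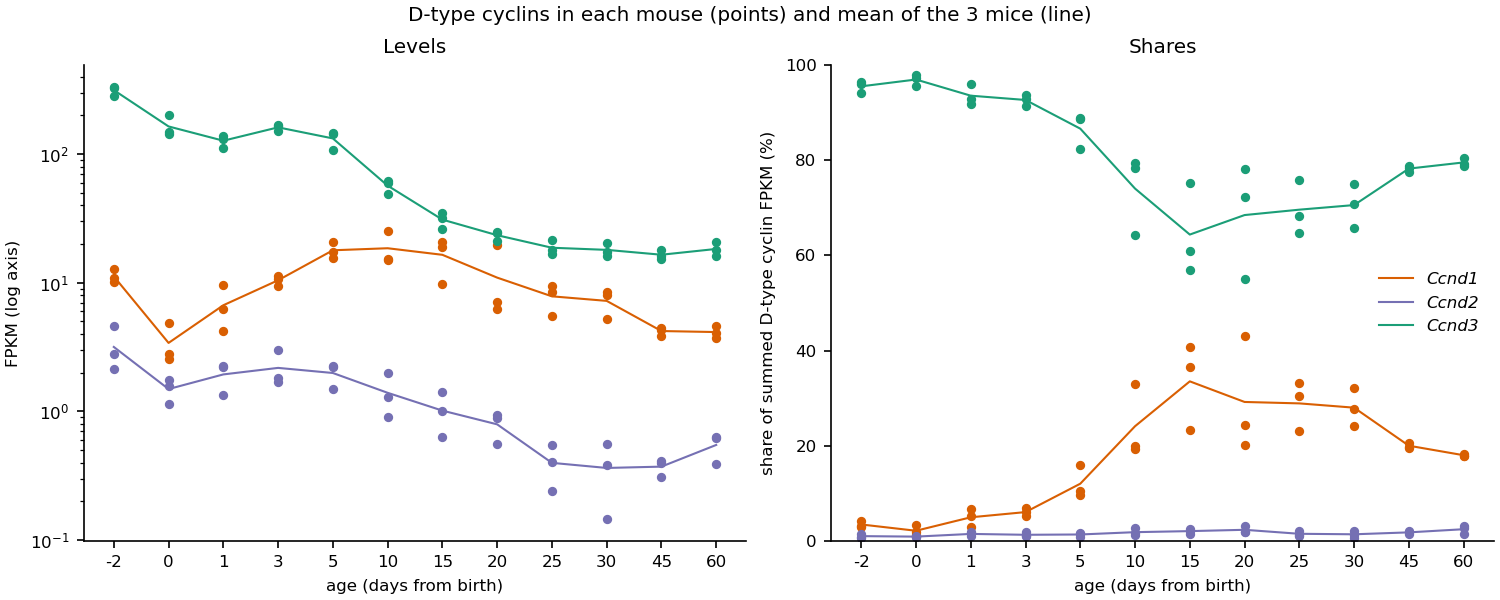
Left, FPKM of the 3 D-type cyclins in each mouse on a log axis by age; right, each cyclin as a percentage of their summed FPKM, with points for mice and lines for the mean of 3. Ccnd3 holds 97.0% at Day 0 and 64.4% at Day 15, where Ccnd1 reaches 33.5%.

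Cdk4 was by far the more abundant of both kinases that D-type cyclins activate. It was at 108, 141 and 135 FPKM at GD17.5 and at 12.6, 14.6 and 18 FPKM at Day 60. The means, 128 ± 17.4 and 15.1 ± 2.70 FPKM, differed 8.51-fold (log2 fold change 3.01 ± 0.15, adjusted p = 7.01e-17). Between Day 0 and Day 5 the level was nearly flat, with means from 72.5 to 82.9 FPKM and overlapping mice. At Day 10 it was at 35.7, 45.5 and 42.9 FPKM, below every mouse of Day 5. The Cdk4 call at Day 20, with a log2 fold change of 0.44 ± 0.15 (adjusted p = 0.0447), was lost when any of 10 libraries was left out (adjusted p from 0.0501 to 0.238). Those libraries were each of the Day 20 mice, Day 60 mice 1 and 2, and 1 mouse each of GD17.5, Day 3, Day 5, Day 25 and Day 45.

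Cdk6 stayed near or below 1 FPKM, the least abundant of the 10 genes at GD17.5 and at Day 60. Its means ran from 0.522 ± 0.167 FPKM at Day 60 to 1.22 ± 0.480 at GD17.5, where the mice were at 1.77, 0.901 and 0.980 FPKM. The highest value again belonged to the GD17.5 library that favoured long transcripts. The log2 fold change against Day 60, 0.53 ± 0.15 (adjusted p = 0.00280), was 0.26 and not called after scaling by the upper quartile of each library. Lower Cdk6 at Day 0 (0.367, 0.704 and 1.00 FPKM) than at GD17.5 was called (-0.39 ± 0.15, adjusted p = 0.0337), but the mice overlapped, and without GD17.5 mouse 1 the change was -0.22 (adjusted p = 0.268). The call was lost too without Day 0 mouse 1 or 2. It was also lost with upper quartile (-0.24) or TPM scaling (-0.58) and with a trend with transcript length removed (-0.29). With upper quartile scaling the calls against Day 60 at Days 1, 3 and 5 were lost as well (0.19, 0.22 and 0.18). The calls at Days 1, 5 and 10 did not hold without Day 60 mouse 3, nor those at Days 1 and 10 without mouse 1 of that age, in both cases a library that favoured long transcripts (adjusted p from 0.0603 to 0.153).

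The inhibitor Cdkn1a had the sharpest change of the 10 genes at birth. It was at 4.10, 4.52 and 3.98 FPKM at GD17.5. In the newborns of Day 0 it was at 48.7, 31 and 39.9 FPKM. At Day 1 it was at 13.3, 14.9 and 10.4 FPKM. The Day 0 mice lay above all mice of every other age, since the highest value elsewhere was 14.9 FPKM. The rise from GD17.5 to Day 0 was 9.48-fold in the means, 39.9 ± 8.84 against 4.2 ± 0.281 FPKM (log2 fold change 2.95 ± 0.30, adjusted p = 4.50e-09). Without Day 0 mouse 1, the library with muscle RNA, it was 8.43-fold (log2 fold change 2.80 ± 0.33, adjusted p = 1.39e-07). From Day 0 to Day 1 Cdkn1a fell by 1.55 ± 0.30 on the log2 scale (adjusted p = 2.61e-04). Birth, the lack of milk and the hour of collection cannot be told apart at Day 0.

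Cdkn1a and Cdkn2c were the genes still called against Day 60 at Days 25 and 30, and the Day 60 level of Cdkn1a was 1.24 ± 0.333 FPKM. Its mean was between 10.9 and 12.9 FPKM at Days 1, 3, 5 and 15, and 7.31 ± 2.98 FPKM at Day 10. At Day 20 the mice were at 6.58, 3.48 and 3.52 FPKM, and at Day 25, after weaning, at 6.27, 12.5 and 11.7 FPKM. This rise was called (log2 fold change 1.01 ± 0.30, adjusted p = 0.0326) but 1 mouse of each age overlapped with the other age, and the call was lost without Day 20 mouse 2 or 3 or Day 25 mouse 2 or 3 (0.85 to 0.89, adjusted p from 0.132 to 0.175). It was the only one of the 10 genes called between Day 20 and Day 25, where 7.19% of all genes tested were called. Against Day 60, Day 25 was 2.28 ± 0.30 higher (adjusted p = 2.30e-06). At Day 30 the difference was 1.25 ± 0.30 (adjusted p = 0.0118), and without Day 60 mouse 2 it was 1.17 (adjusted p = 0.0743). At Day 45 mouse 3, whose library favoured short transcripts, was at 5.42 FPKM and the others at 1.58 and 1.94.

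Cdkn1b was low after birth. The GD17.5 mice were at 3.14, 5.89 and 5.01 FPKM and the Day 0 mice at 1.49, 2.39 and 1.34 FPKM. The groups did not overlap and the log2 fold change was -1.04 ± 0.26 (adjusted p = 0.00172). From Day 5 on Cdkn1b was not called against Day 60 (0.817, 1.34 and 1.21 FPKM). The calls at Day 1 (0.73) and Day 3 (0.62) were lost without mouse 1 of that age or without Day 60 mouse 1, and the latter also without Day 60 mouse 3 (adjusted p from 0.0600 to 0.362). Mouse 1 of Day 1 and mouse 1 of Day 3 had libraries that favoured long transcripts. The Day 3 call was lost as well with a pseudocount of 0.1, without a filter, with upper quartile or TPM scaling and with adjustment over all comparisons. In contrast to Rb1, Ccnd2 and Cdk6, the GD17.5 library that favoured long transcripts had the lowest Cdkn1b value of its age.

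Cdkn2c was at 10.4, 10.0 and 9.02 FPKM in the GD17.5 mice, at 5.21, 3.32 and 3.41 in the Day 0 mice and at 1.58, 2.29 and 2.12 in the Day 60 mice. The first of these ages was above every mouse of the others, 4.91-fold above Day 60 (log2 fold change 1.86 ± 0.15, adjusted p = 8.47e-12). Cdkn2c was not called at Days 15 and 20, was called at Days 25 and 30 after weaning, and was not called at Day 45. Its means were 2.57 ± 0.367 FPKM at Day 20, 3.63 ± 0.610 at Day 25 and 3.92 ± 0.209 at Day 30, and 2.11 ± 0.565 at Day 45. Day 30 was above Day 60 by 0.72 ± 0.15 on the log2 scale (adjusted p = 0.00484), whichever library was left out. Day 25 was above by 0.63 ± 0.15 (adjusted p = 0.00909), but not without Day 25 mouse 2 or Day 60 mouse 1 (adjusted p 0.0728 and 0.0790 as the lowest and highest). The change from Day 20 to Day 25 itself was not called for Cdkn2c, although its unadjusted p was under 0.05. The Day 10 call (0.41) was lost without Day 10 mouse 3 or Day 60 mouse 1 (adjusted p 0.154 and 0.164). It was also lost with upper quartile scaling (0.3).

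Rb1, whose protein is the substrate of the cyclin D kinases, was at 14.5, 4.04 and 5.42 FPKM at GD17.5 and at 0.813, 0.812 and 0.511 FPKM at Day 60. The first value came from the library that favoured long transcripts, and the longest Rb1 transcript has 4656 bases. With all mice the means differed 11.2-fold (log2 fold change 2.22 ± 0.32, adjusted p = 4.54e-07). Without that mouse they differed 6.64-fold, 4.73 against 0.712 FPKM (1.74 ± 0.30, adjusted p = 9.92e-06). At Day 0 Rb1 was at 2.37, 1.5 and 1.24 FPKM, below every GD17.5 mouse (-1.58 ± 0.32, adjusted p = 1.87e-04, and -1.10 ± 0.30 without GD17.5 mouse 1, adjusted p = 0.00446). The calls at Day 1 (0.88) and Day 3 (0.91) were lost without mouse 1 of that age or Day 60 mouse 3 (adjusted p from 0.0521 to 0.199), and mouse 1 of Day 1 and of Day 3 had libraries that favoured long transcripts. With a trend with transcript length removed from all libraries, the Rb1 calls stood. That removal ended 1 of the 76 calls of the 10 genes, that of Cdk6 at Day 0 against GD17.5. It raised the calls over all genes at GD17.5 against Day 60 from 8368 to 8669. The part of this library difference in the levels was not tested further. Between Day 10 and Day 45 every mouse was at or below 0.769 FPKM. Each Day 60 mouse was above every mouse of Days 20, 25 and 30, although these differences were not called.

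Trp53 was highest before birth and varied little between mice of an age. It was at 26.4, 35 and 27.3 FPKM in the GD17.5 mice and at 16, 21.4 and 18.2 in the newborns. At Day 60 it was at 3.64, 3.79 and 4.50 FPKM. GD17.5 was 7.44-fold above Day 60 (log2 fold change 2.61 ± 0.14, adjusted p = 3.74e-16). At Day 10 it was still 2.56-fold above (1.17 ± 0.14, adjusted p = 6.26e-08), with mice at 9.51, 11.3 and 9.71 FPKM. The difference at Day 20, 0.49 ± 0.14 (adjusted p = 0.0146), was lost without Day 20 mouse 1 or 3 or Day 60 mouse 1 or 2 (adjusted p from 0.0531 to 0.124). At Days 25 to 45 Trp53 was not called.

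**Figure D3:**
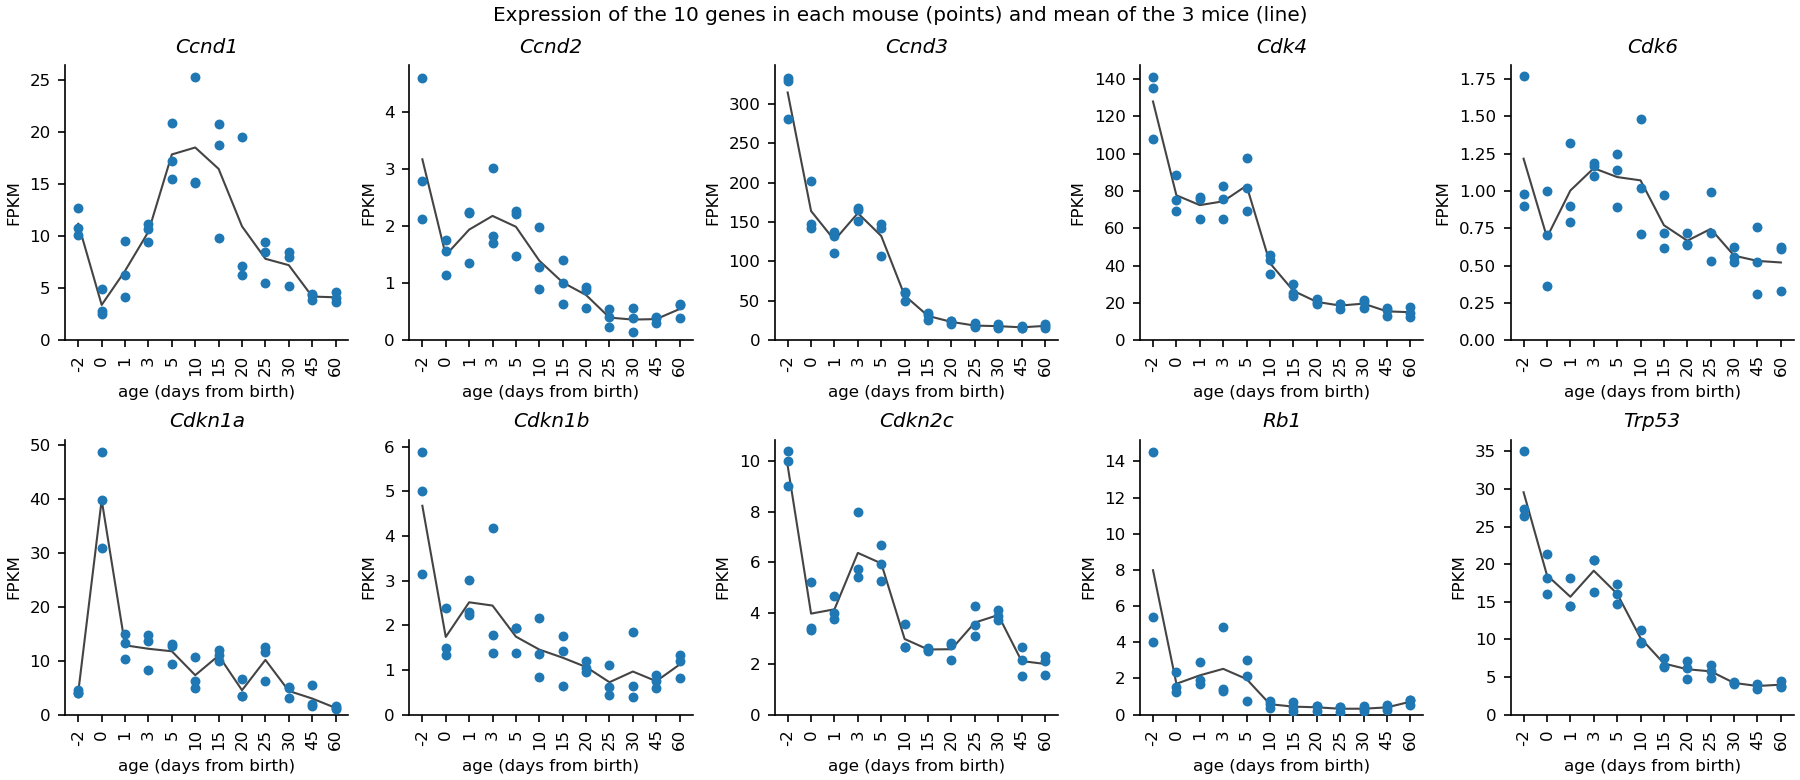
FPKM of each of the 10 genes in each mouse (points) and the mean of 3 mice (line) by age in days from birth, with a linear axis from 0 in each panel. Ccnd3, Cdk4 and Trp53 decline from GD17.5, Ccnd1 is highest at Days 5 to 15, and Cdkn1a peaks at Day 0 with mice at 48.7, 31 and 39.9 FPKM.

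Between GD17.5 and Day 0 all 10 genes were called, 9 as lower and Cdkn1a as higher, where 54.6% of all genes tested were called, 41.4% as lower and 13.1% as higher. The median log2 fold change of the 10 was -0.83, against -0.29 for all genes tested. Between Day 0 and Day 1 limma called 1 of the 10, Cdkn1a, where 31.6% of all genes tested were called, and the changes of Ccnd1 and Ccnd3 had an unadjusted p under 0.05. That count was 3 with the replicate block, with the length trend removed or without Day 0 mouse 2, and 2 with a pseudocount of 0.1, upper quartile or TPM scaling or when 1 of 7 other libraries was left out. The directions at birth did not depend on library scaling. With scaling by each library's upper quartile the median of the 10 was -0.59 and that of all genes -0.08, and the split of all calls moved from 1466 higher and 4617 lower to 2238 and 2902. For GD17.5 against Day 60 that scaling gave 4534 higher and 3234 lower calls, in place of 6289 and 2079, with medians of 1.2 for the 10 genes and 0.15 for all.

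The partners of these genes at the G1 to S boundary were followed with gene lists. These were drawn up from general knowledge, while earlier results of these data were known. Of 19 partner genes, which include cyclin E, its kinase and the E2F family, 18 were higher at GD17.5 than at Day 60 (median log2 fold change 2.56) and 1, Rbl2, was not called. Of all genes tested 56.4% were higher, with a median of 0.56. E2f2 (6.47 ± 0.18), Ccne1 (4.98 ± 0.16) and E2f4 (4.29 ± 0.12) differed most. Ccne1, a cyclin E gene, was at 35.9 ± 3.50 FPKM at GD17.5 and 0.162 ± 0.0242 at Day 60. Ccne2, the other cyclin E gene (1.76 ± 0.24), and Cdk2, the kinase of both (2.14 ± 0.17), differed less. At Day 20, where 8.93% of all genes tested were higher than at Day 60 and 6.99% lower, 3 of the 19 were higher. That count was 0 without Day 20 mouse 1, 1 without Day 60 mouse 1 or 2, and 2 to 4 without any 1 of the other libraries. At Day 0, 18 of the 19 were lower than at GD17.5, as were Ccnd1, Ccnd2, Ccnd3 and Cdk4, where 41.4% of all genes tested were lower.

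Of 4 other kinase inhibitor genes, 2 passed the filter, and both were higher at GD17.5 than at Day 60, where 56.4% of all genes tested were higher. Cdkn1c (p57), an imprinted inhibitor of the same class as p21 and p27, differed by 6.34 ± 0.28 and Cdkn2d (p19) of the INK4 class by 4.64 ± 0.13. Both were also lower at Day 0 than at GD17.5 (41.4% of all genes tested), and higher at Day 20 than at Day 60 (2.53 ± 0.28, and 0.38 ± 0.13 with a limma adjusted p of 0.0385 for Cdkn2d), where 8.93% of all genes tested were higher. Without Day 20 mouse 1 or 2 or Day 60 mouse 1 or 2, 1 of the pair was called at Day 20. Cdkn1c and Cdkn2d passed the filter through younger ages only, as their Day 60 means were 0.91 and 0.897 FPKM. Their direction is therefore a description of genes chosen in part by it. Cdkn2a and Cdkn2b, the remaining INK4 genes, did not reach a mean of 1 FPKM at any age. The means of Cdkn2b were 0.0509 FPKM at GD17.5 and 0.105 at Day 60. Without a filter, 1 of the 4 genes was called as lower at GD17.5 than at Day 60, and 1 at Day 20. The inhibitors with a fetal maximum were thus Cdkn1b, Cdkn1c, Cdkn2c and Cdkn2d, while Cdkn1a was lower at GD17.5 than at Day 0.

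Of 19 regulators and targets of p53, 14 were tested. At GD17.5, 9 were higher than at Day 60, among them Btg2 (3.36 ± 0.24) and Gadd45a (3.19 ± 0.26), which restrain growth, and 2 were lower, shares near the 56.4% and 18.6% of all genes tested. The lower genes were Perp (-1.83 ± 0.15) and Fas (-1.30 ± 0.12), which act in cell death. From GD17.5 to Day 0, where Cdkn1a rose, 1 of the 14 rose and 5 fell, near the 13.1% and 41.4% of all genes tested, so the counts say nothing particular to this list. Fas rose by 1.16 ± 0.12. Those that fell were Gadd45a (-1.57 ± 0.26), Ccng1 (-1.11 ± 0.30), Btg2 (-1.08 ± 0.24), Mdm2, the ubiquitin ligase that limits p53 (-0.76 ± 0.23), and Aen (-0.35 ± 0.15). Trp53 itself fell by 0.65 ± 0.14. At Day 20 limma called none of the 14, and 2 (Bbc3 and Btg2) had an unadjusted p under 0.05. That Fas, Ccng1, Aen, Bbc3 and Rbl2 are named here was decided after their values were seen.

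**Figure D4:**
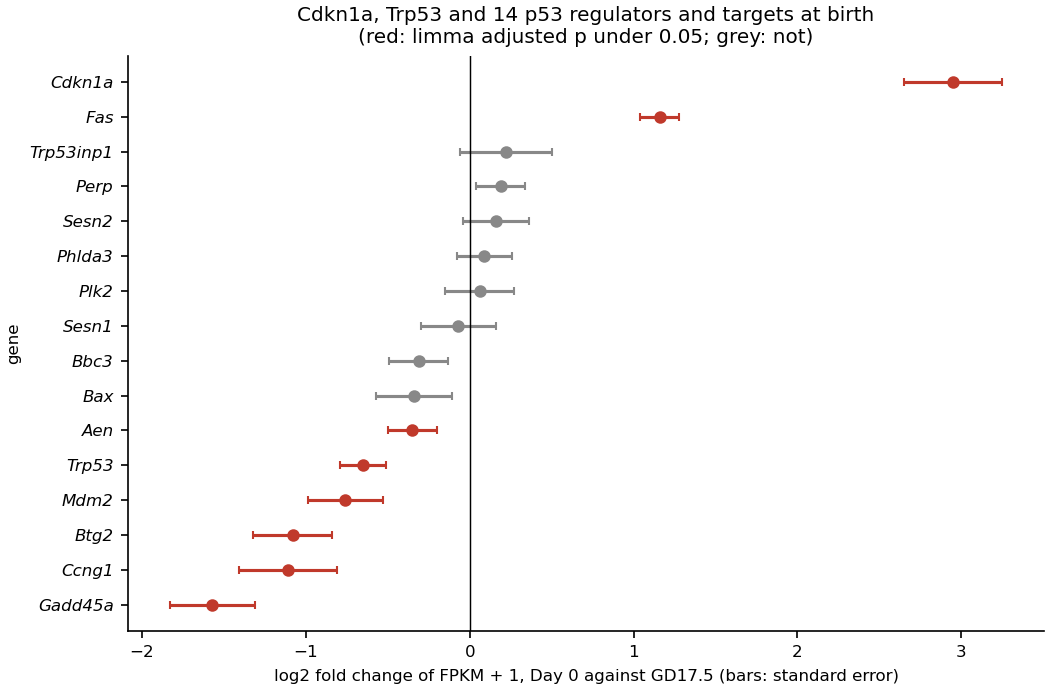
Log2 fold change of FPKM + 1 from GD17.5 to Day 0, with its standard error, for Cdkn1a, Trp53 and the 14 p53 regulators and targets tested; red marks a limma adjusted p under 0.05. Cdkn1a is at 2.95 and Fas at 1.16, while Gadd45a is at -1.57 and Trp53 at -0.65.

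All 16 genes of a list of proliferation genes were higher at GD17.5 than at Day 60 (median log2 fold change 4.79), as were 56.4% of all genes tested, and lower at Day 0 than at GD17.5, as were 41.4%. Ccna2 (6.56 ± 0.25), Birc5 (6.39 ± 0.25) and Ccnb2 (5.95 ± 0.17), which act in S phase and mitosis, differed most, and Mki67, the gene of the Ki-67 antigen, by 4.71 ± 0.40. Mki67 was uneven at GD17.5, at 56.1, 25.1 and 12 FPKM, the first in the library that favoured long transcripts, and without that mouse the difference was 4.16 ± 0.40. At Day 20 there were still 13 of the 16 above Day 60, where 8.93% of all genes tested were higher, and the count was 8 without Day 20 mouse 1. Among the 10 G1 genes the largest log2 fold change at GD17.5 was that of Ccnd3, 4.03, and the median was 1.63.

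RNA of blood-forming cells was abundant at the ages at which most of the G1 genes were high. Of 11 erythroid marker genes, 11 were higher at GD17.5 than at Day 60, where 56.4% of all genes tested were higher. Their summed FPKM was 142308, 175140 and 196210.3 in the GD17.5 mice, 72644, 84637 and 80627 in the Day 0 mice and 790.1, 688 and 752 in the Day 60 mice. Hba-a1, an alpha globin gene, was the most abundant of them. These 11 genes made up 40.2% of all FPKM before birth, 18.4% in the newborns and 0.19% in the Day 60 mice. At Day 0, 10 of the 11 were lower than at GD17.5, in the direction of Ccnd3, Cdk4 and Trp53 and of 41.4% of all genes tested. The part of erythroid cells in these genes' levels was not tested.

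Marker lists of other cell types were compared in the same way. Of all genes tested, 56.4% were higher and 18.6% lower at GD17.5 than at Day 60. Of 7 neutrophil genes all were higher at GD17.5 than at Day 60 (summed FPKM 2579 ± 766 against 2.24 ± 0.733, S100a8 the most abundant), as were all 5 megakaryocyte genes (242 ± 19 against 2.53 ± 0.113, Ppbp) and all 6 B lineage genes (32.6 ± 6.21 against 2.55 ± 1.04, Cd79b, with Igll1 listed at 0 at Day 60). The gene named for each list is its most abundant over all ages. The 6 hepatocyte genes were all lower at GD17.5 (8073 ± 762 against 41583 ± 4444). At birth all 6 rose, as Cdkn1a did, where 13.1% of all genes tested were called as higher. Of the 6 macrophage genes (Cd5l the most abundant) 4 were higher and 2 lower at GD17.5, summing to 113 ± 8.0 against 75 ± 9.91 FPKM. Of 6 endothelial genes (Stab1) 3 were higher, 49.9 ± 11.1 against 31.9 ± 1.62 FPKM. Of 6 stellate cell genes (Col3a1) 3 were higher and 1 lower, 83.0 ± 11.6 against 18.4 ± 2.48 FPKM. Of 4 biliary genes (Krt19) 3 were tested and 2 higher, 7.53 ± 2.97 against 3.34 ± 1.82 FPKM. For the macrophage, endothelial, stellate and biliary lists the counts were near the shares over all genes tested and say nothing particular to them. Of 4 T cell genes (Cd2) 3 were tested, with log2 fold changes from -0.24 to -0.03 that did not pass the test and sums of 0.288 ± 0.103 against 0.669 ± 0.117 FPKM.

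Muscle genes were highest in Day 0 mouse 1 and next in Day 10 mouse 1, while pancreas genes were read in all mice of some ages and in single mice of others. Of 5 muscle genes (Acta1) 1 was higher at GD17.5 than at Day 60 (56.4% of all genes tested). At Day 0, 2 were higher than at GD17.5 (13.1%). In mice 2 and 3 of Day 0 the muscle sum was 4.37 and 4.08 FPKM, where Cdkn1a was at 31 and 39.9 FPKM. Of 5 pancreas genes (Ctrb1) 4 were higher at Day 0 than at GD17.5, as were 13.1% of all genes tested. The pancreas sums were 772, 462 and 4618 FPKM in the Day 0 mice against at most 2.09 at GD17.5. Day 1 mice had sums of 553, 998 and 143 FPKM and Cdkn1a levels of 13.3, 14.9 and 10.4 FPKM. Pancreas sums were also high in all mice of Day 3 (444 to 1085 FPKM) and Day 15 (305 to 3868 FPKM) and in 2 of 3 mice at Day 5 (831 and 1055 FPKM) and Day 10 (1123 and 203 FPKM), whereas no Day 25 mouse was above 1.4 FPKM. The part of pancreas RNA in the level of Cdkn1a was not tested.

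**Figure D5:**
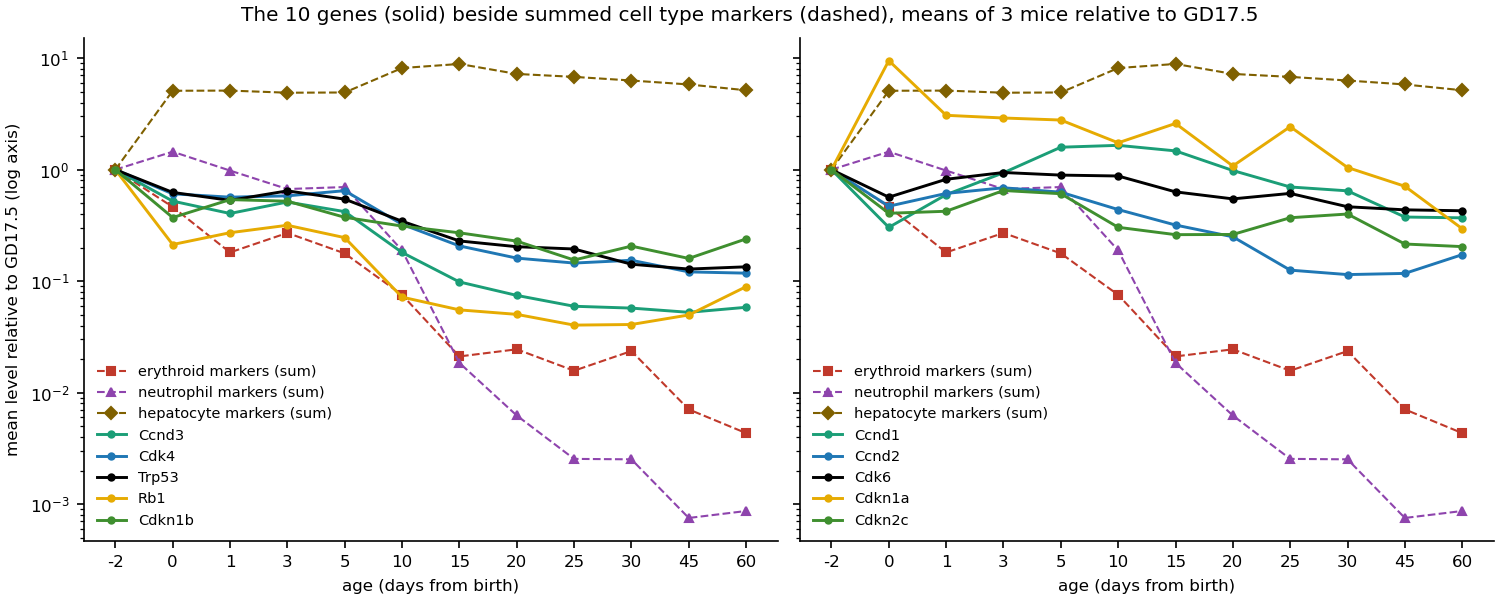
Mean FPKM of the 10 genes (solid lines, 5 in each panel) and summed FPKM of erythroid, neutrophil and hepatocyte marker genes (dashed lines), each relative to its own GD17.5 mean, on a log axis by age in days from birth. The erythroid sum goes from 171219 at GD17.5 to 743 FPKM at Day 60, a longer way than any of the 10 genes, and Cdkn1a is the one gene that leaves its GD17.5 level upward at Day 0.

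Over the 12 age means, on the log2 scale, Ccnd3, Cdk4 and Trp53 had nearly the same course, with Pearson r of 0.99 for each pair. Ccnd2 was close to Ccnd3 (0.97), and Cdkn1b to Rb1 (0.97). Ccnd1 and Cdkn1a stood apart, with r of 0.08 between them. For Ccnd1 the values with the other genes ran from 0.08 to 0.67 and for Cdkn1a from 0.08 to 0.58. These values describe 12 means that share libraries and cell composition. The genes outside the 10 most like Ccnd3 were Ppp1r9b, Lrfn4 and Cd24a (0.998), those most like Cdk4 were Armcx6, 2310011J03Rik and Polr2g, and those most like Trp53 were Car2 (0.997), Bat1a and Mcm2. For Ccnd1 they were 1110001A16Rik (0.944), Plxnb1 (0.940) and Mmd2 (0.926). For Cdkn1a the nearest genes, Gpr120 (0.870), Tppp3 and Oas2, were less alike. Clasp1 and Gon4l were among the genes most like Ccnd2, and Cdk6 was most like Agk, BC052040 and Kdelr2, Cdkn1b like Usp25, Supt16h and Ccnl1, Cdkn2c like Zcchc17, Mrps28 and Bud31, and Rb1 like Zmat2, Dennd4a and Taf5.

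The order of the 10 genes by level changed with age as well. At GD17.5 it was Ccnd3, Cdk4, Trp53, Ccnd1, Cdkn2c, Rb1, Cdkn1b, Cdkn1a, Ccnd2 and Cdk6. At Day 0 Cdkn1a was at rank 3, with 39.9 FPKM against 18.5 for Trp53. At Day 60 Ccnd3 and Cdk4 were still first, at 18.3 and 15.1 FPKM with overlapping mice, followed by Ccnd1 at 4.14 and Trp53 at 3.98, and Cdk6 was again last. Within a gene, neighbours in the order of its 12 age means overlapped in 6 of 11 pairs for Ccnd3, 7 of 11 for Cdk4 and Trp53, 9 for Cdkn2c, 10 for Cdk6, Cdkn1a, Cdkn1b and Rb1 and all 11 for Ccnd2.

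The genes lie on 8 chromosomes in NCBI37/mm9, by the GENCODE M1 annotation: Ccnd1 at chr7:152115836-152125774, Ccnd2 and Cdkn1b on chromosome 6, Ccnd3 at chr17:47642000-47736632, Cdkn1a at chr17:29227924-29237667, Cdk4 on 10, Cdk6 on 5, Cdkn2c on 4, Rb1 on 14 and Trp53 at chr11:69393861-69405375. Genes on the opposite strand overlap Ccnd1 (Oraov1), Ccnd2 (9330179D12Rik), Ccnd3 (Bysl), Cdk4 (Tspan31), Cdk6 (Gm17590) and Rb1 (Lpar6 and Rcbtb2). No use of strand in counting is stated, so reads from these genes and from their partners cannot be told apart where they overlap. Cdkn1a, Cdkn1b, Cdkn2c and Trp53 have no such partner in that annotation.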

How the data were processed

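Total liver RNA was selected for polyadenylated RNA, and the authors sequenced it as paired reads of 100 bases, mapped it to NCBI37/mm9 with TopHat 1.2.0 and estimated abundance with Cufflinks 1.0.3, as the submitters' processing notes and methods state. The deposited FPKM values (1 per symbol and mouse) were used as given, since no further scaling is stated. The members and gene lists were chosen with earlier results of these data known.

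Values were taken as log2(FPKM + 1). Fold changes on this scale understate changes of low genes. A gene with a Day 60 mean under 1 FPKM was tested only if another age reached the filter, in the lists as among all genes. Genes that reached an age mean of 1 FPKM or more (11149) were fitted with limma 3.58.1 (R 4.3.3), 1 mean per age over 36 mice, with a mean-variance trend and Benjamini-Hochberg adjustment within each comparison. Genes were called at an adjusted p under 0.05. The step was tested on simulated data. Replicates correlated at 0.952 or more. In 1021 of 3658 low genes, kept because their values lay close to steps, 86.7% of low values lay within 0.1 of whole fragments. Named genes are the 10 members, the 3 genes most like each by Pearson r (1 of them is not reported here), the 3 with the largest change at GD17.5 in each pathway list, Mdm2, Mki67, Ccne1, Ccne2 and Cdk2, and the most abundant marker of each list. The comparison of the lists at Day 0 and the removal of a trend with transcript length were added after the data were seen. Python 3.11.15, scipy 1.17.1 and matplotlib 3.10.9 served for the shares and figures. A permutation test planned for the shares is not reported, since ages in sequence are not exchangeable.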

Additional observations from a re-analysis of the deposited data

How the results depend on the processing

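Of the 76 fold changes called for the 10 genes, none changed direction under any alternative, and 59 were called whichever library was left out. With scaling by each library's upper quartile 11 were no longer called, and the counts against Day 60 were 6 at Day 1 and 6 at Day 3. Without a filter 3 were no longer called, and with TPM scaling 2. A pseudocount of 0.1, adjustment over all comparisons and removal of the length trend ended 1 call each. For Day 1 against Day 0 the count was 2 with a pseudocount of 0.1, upper quartile scaling or TPM, and 3 with the replicate block or the transcript length trend removed. Without a filter it was 0 for Day 25 against Day 20 (1 as reported), with Cdkn1a at 1.01. A filter at 5 FPKM left 3 of the 10 genes, Ccnd2, Cdk6 and Cdkn1b, untested. With 1 library left out, counts against Day 60 were 10 at GD17.5, 6 to 7 at Day 0, 6 to 10 at Day 1, 8 to 10 at Day 3, 7 to 9 at Day 5, 6 to 8 at Day 10, 5 at Day 15, 1 to 4 at Day 20, 1 to 3 at Day 25, 1 to 2 at Day 30 and 0 at Day 45. They were 8 to 10 for Day 0 against GD17.5, 1 to 3 for Day 1 against Day 0 and 0 to 1 for Day 25 against Day 20.

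For the lists, 1 of the G1 partners was lower at GD17.5 with upper quartile scaling, 1 of the other inhibitors was lower at GD17.5 and 1 at Day 20 without a filter, 4 of the p53 list were higher at GD17.5 with the filter at 5 FPKM, and 1 of it was higher at Day 20 with a pseudocount of 0.1, upper quartile scaling or adjustment over all comparisons. Without 1 library the partners higher at Day 20 were 0 to 4, the other inhibitors 1 to 2, the p53 list 0 to 1 in either direction (7 to 9 higher at GD17.5) and the proliferation genes 8 to 13. With the boundary at Day 20 the share differences were -9.28 (Ccnd1), -0.25 (Ccnd2) and 9.54 (Ccnd3) percentage points, and without 1 library they were -20.98 to -19.26, -0.77 to -0.65 and 20.00 to 21.73. The cause of these changes was not tested.

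Mice with the same replicate number are different animals and were not treated as pairs: their deviations correlated at a median of 0.126 (lowest -0.68, 198 pairs), against -0.048 for other numbers. Mouse 1 favoured long transcripts in 10 of 12 ages, and whether replicate numbers share a technical factor was not tested. The replicate block ended none of the 76 calls and raised the calls over all genes at GD17.5 from 8368 to 8522.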
